A study of Danio rerio with 2 samples.

Results

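Phospholipase D hydrolyses phosphatidylcholine to choline and the lipid second messenger phosphatidic acid. In mammalian cells phosphatidic acid binds the rapamycin-binding region of the mTOR kinase, which is why phospholipase D genes are placed in mTOR signaling. Mammalian PLD1 is stimulated by protein kinase C and by small GTPases and lies mainly on internal membranes, whereas PLD2 has a higher basal activity and lies mainly at the plasma membrane. The zebrafish mTOR signaling PCR array reads 2 genes of this family, *pld1a* (phospholipase D1a, RefSeq NM_001160095, well D9) and *pld2* (phospholipase D2, RefSeq XM_005165378, well D10). They are all the genes of the plate with a symbol that begins with pld, 2 of 89 genes and 2 of the 84 pathway genes. They were selected on their measured log2 fold changes between the genotypes, higher for *pld1a* and lower for *pld2* in the mutant, so these values are given as a description and without a test. The RefSeq gene table of the assembly GRCz12tu names 8 *pld* genes of zebrafish, and the other ones, with *pld1b* among them, are not on the plate. Both wells matched this table by their identifier. In it, *pld1a* and *pld2* lie on different chromosomes, and neither shares a chromosome with *nod1*.

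The mutant larvae were *NOD1-1IS*-/-, homozygous for a Cas9-induced insertion of 1 base pair in the *NOD1* locus, and the control larvae were WT of the AB/TU background. Both were collected at 10 dpf, with 3 biological replicates per genotype, each a pool of 200 to 250 whole larvae. The mutant is a single line, and the pools mix all tissues, so fewer cells that express a gene and less RNA per cell cannot be told apart. The plate holds neither *nod1* nor a set of tissue markers, so the genotype and the tissue of a pool were not checked on it.

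Each gene was read by SYBR Green PCR in 1 well per replicate over 40 cycles, starting from 1000 ng of total RNA. The result is a threshold cycle (Ct), which is 1 cycle lower when there is 2 times as much template. ΔCt sets the Ct of a gene against the average of *hprt1*, *nono* and *rpl13a* in the same replicate, and the relative level is 1000 times 2 to the power of −ΔCt. The 534 wells with genes amplified at 14.65 to 28.98 cycles, and the median pathway gene lay between 22.63 and 22.99 in the 6 replicates. A fixed template in 3 wells, the positive PCR control, averaged 19.25 cycles in *NOD1-1IS*-/- replicate 1, 19.69 and 19.55 in replicates 2 and 3, and 19.70 to 19.71 in the WT replicates. The genomic DNA control had a Ct in 0 of 6 wells. The reverse transcription control, which reads an external RNA, had a Ct in 0 of 18 wells. Whether that RNA was added is not stated in the sources used here, so these wells do not check the reverse transcription.

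*pld1a*, which codes for a zebrafish counterpart of PLD1, had a raw Ct of 23.63, 23.90 and 24.39 cycles in *NOD1-1IS*-/- replicates 1, 2 and 3, against 25.09, 24.58 and 24.81 cycles in WT replicates 1, 2 and 3. The earliest Ct was that of *NOD1-1IS*-/- replicate 1, which was also the replicate with the earliest positive PCR control, and the part of that plate in the value was not tested. Relative to the reference genes, the level of *pld1a* was 48.5, 44.3 and 30.4 in the *NOD1-1IS*-/- replicates, against 23.7, 29.5 and 29.7 in the WT replicates. The mutant replicates 1 and 2 stood well above every WT replicate, whereas replicate 3 lay only just above WT replicates 2 and 3. The genotypes did not overlap, but on the ΔCt scale the gap between the nearest replicates was 0.032 cycles. The relative level averaged 41.1 ± 9.46 in *NOD1-1IS*-/- and 27.6 ± 3.45 in WT (SD, n = 3 each). ΔCt was 4.63 ± 0.36 cycles in *NOD1-1IS*-/- and 5.19 ± 0.19 cycles in WT (SD, n = 3 each), a log2 fold change of 0.55 with a standard error of 0.23 from the spread of these replicates. The level was thus 1.46-fold higher in *NOD1-1IS*-/-.

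*pld2*, which codes for the zebrafish counterpart of PLD2, had a raw Ct of 26.05, 25.92 and 26.07 cycles in *NOD1-1IS*-/- replicates 1, 2 and 3, against 25.64, 25.60 and 25.81 cycles in the WT replicates. It came up later in every mutant pool than in any WT pool, with 0.10 cycles between the nearest pools. The positive control and the median pathway gene did not come up later in the mutant pools. Whether plates or input RNA had a part in the raw Ct was not tested. The relative level of *pld2* was 9.06, 10.9 and 9.52 in the *NOD1-1IS*-/- replicates, against 16.2, 14.6 and 14.8 in the WT replicates. The genotypes were separated by 0.42 cycles of ΔCt, and the replicates of each lay close together. The relative level averaged 9.84 ± 0.985 in *NOD1-1IS*-/- and 15.2 ± 0.855 in WT (SD, n = 3 each). ΔCt was 6.67 ± 0.14 cycles in *NOD1-1IS*-/- and 6.04 ± 0.080 cycles in WT (SD, n = 3 each), a log2 fold change of −0.63 with a standard error of 0.094, and the level was 1.55-fold lower in *NOD1-1IS*-/-.

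**Figure D1:**
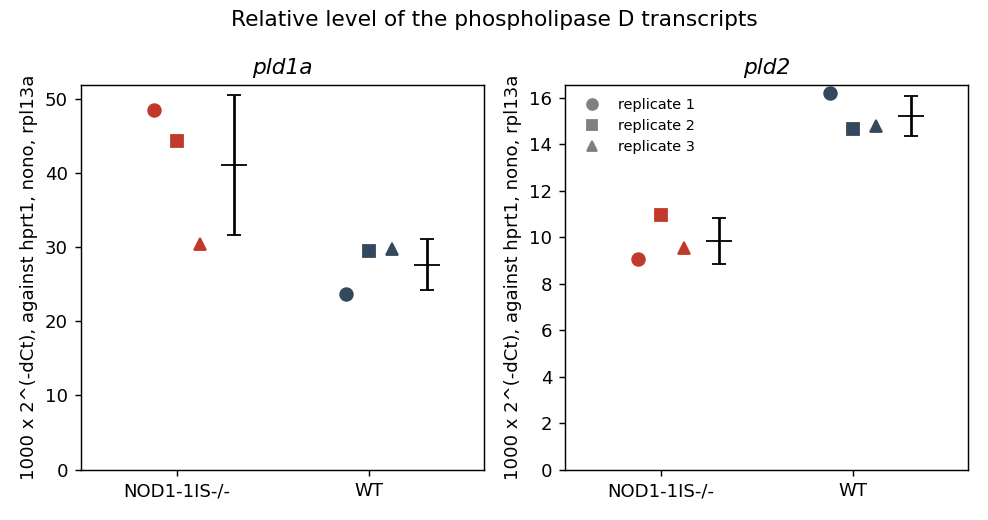
Relative level of *pld1a* (left panel) and *pld2* (right panel), 1000 times 2 to the power of −ΔCt against *hprt1*, *nono* and *rpl13a*, in the 3 replicates of *NOD1-1IS*-/- and of WT. Symbols are replicates, and the bar beside them is the mean ± SD. *pld1a* lies between 30.4 and 48.5 in *NOD1-1IS*-/- and between 23.7 and 29.7 in WT, and *pld2* between 9.06 and 10.9 in *NOD1-1IS*-/- and between 14.6 and 16.2 in WT.

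The spread between pools differed between the 2 transcripts. In *NOD1-1IS*-/- the SD of ΔCt of *pld1a*, 0.36 cycles, was the 7th largest of the 84 pathway genes, and in WT, with 0.19 cycles, it was the 21st largest. For *pld2* the SD ranked 39th in *NOD1-1IS*-/- and 64th in WT, and the median SD over the 84 genes was 0.14 cycles in *NOD1-1IS*-/- and 0.13 cycles in WT. The value of *pld1a* therefore depended more on which pools were read. Its log2 fold change became 0.42 when *NOD1-1IS*-/- replicate 1 was left out and 0.75 when replicate 3 was, whereas that of *pld2* stayed between −0.71 and −0.57 whichever replicate was left out. In order of raw Ct from the earliest, *pld1a* was the 63rd and *pld2* the 78th of the 84 genes. The efficiency of the primer pairs is not given in the sources used here, so these ranks do not compare amounts of the transcripts.

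The difference of the Ct of *pld2* and *pld1a* within a replicate needs no reference gene. It assumes that a difference in input RNA or between plates shifts both wells alike, which was not tested. Ct of *pld2* minus Ct of *pld1a* was 2.42, 2.02 and 1.67 cycles in *NOD1-1IS*-/- replicates 1, 2 and 3, against 0.55, 1.01 and 1.01 cycles in the WT replicates. Expressed as a ratio, *pld1a* stood to *pld2* as 5.35, 4.05 and 3.19 in the *NOD1-1IS*-/- replicates and as 1.46, 2.02 and 2.01 in the WT replicates. All mutant pools had a larger ratio than all WT pools, and the nearest ones were 0.66 cycles apart. This is wider than the gap of either gene against the reference genes. The genes were picked for opposite shifts, which add up in this difference, so a wider gap was largely fixed by that choice. The difference averaged 2.04 ± 0.37 cycles in *NOD1-1IS*-/- and 0.86 ± 0.27 cycles in WT (SD, n = 3 each). Its shift was 1.18 cycles with a standard error of 0.26, so that the ratio of *pld1a* to *pld2* was 2.27-fold higher in *NOD1-1IS*-/-. The ratio itself assumes a doubling in each cycle for both primer pairs, and a change of the ratio between pools is less affected by this than its height. With an efficiency of 90% in place of 100% for all primer pairs, the shift was 1.09 on the log2 scale.

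**Figure D2:**
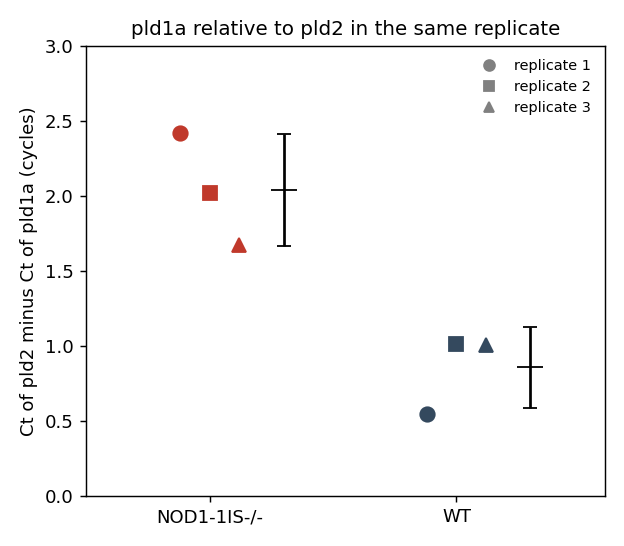
Ct of *pld2* minus Ct of *pld1a* in cycles within each of the 3 replicates of *NOD1-1IS*-/- and of WT, where a higher value means more *pld1a* relative to *pld2*. Symbols are replicates, and the bar beside them is the mean ± SD. The *NOD1-1IS*-/- replicates lie between 1.67 and 2.42 cycles and the WT replicates between 0.55 and 1.01 cycles.

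These separations were read against the rest of the plate. Of the 84 pathway genes, 19 (22.6%) had an adjusted p under 0.05 between the genotypes (limma with Benjamini-Hochberg adjustment), 3 (3.57%) of them higher and 16 (19%) lower in *NOD1-1IS*-/-. This split turned with the reference, to 19 higher and 7 lower with all 5 reference genes, 18 and 9 against the mean of the pathway genes, and 21 and 7 on raw Ct. The mean of the pathway genes includes *akt2l*, at −6.30 in the main analysis, and against it the median log2 fold change was 0.13. Both *pld1a* and *pld2* were among them, but they were picked for this contrast, so nothing is read from that count. *pld1a* was no longer among them with *nono* alone or in 5 of the 6 fits that left out a replicate, and *pld2* was not with all 5 reference genes, *acta1b* alone or *b2m* alone. The genotypes were fully separated in 32 genes (38.1%), 8 of them (9.52%) higher and 24 (28.6%) lower. Of the 3486 pairs of pathway genes, 1582 (45.4%) had a difference in Ct within a replicate that did not overlap between the genotypes. Non-overlap of the *pld1a* to *pld2* ratio was thus common on this plate. A shift at least as large as theirs was found for 305 pairs (8.75%). Most of these hold *akt2l*, *rragd*, *ddit4* or *rps6ka2*, with log2 fold changes of −6.30, −2.35, −1.87 and −1.26. The members were picked for opposite shifts, so nothing is read from this share. All these pairs share genes and replicates, and the pair described here is one of them.

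In the order of log2 fold changes, *pld1a* was the 2nd highest of the 84 genes and *pld2* the 8th lowest. The median log2 fold change of all 84 genes was −0.11, with 25 genes above 0 and 59 below. Relative to this median, *pld1a* was at 0.66 and *pld2* at −0.52. The same position can be given without reference genes by setting each member against every other pathway gene replicate by replicate. *pld1a* was higher in *NOD1-1IS*-/- relative to 82 of the 83 other genes, and for 59 of them the genotypes did not overlap. *pld2* was lower relative to 76 of the 83 other genes, for 60 of them without overlap, and higher relative to 7, for 5 of them without overlap. The counts of higher and lower restate the ranks, and the members were chosen on the same values, so they are no separate check. Over all pairs of pathway genes, 45.4% did not overlap between the genotypes.

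**Figure D3:**
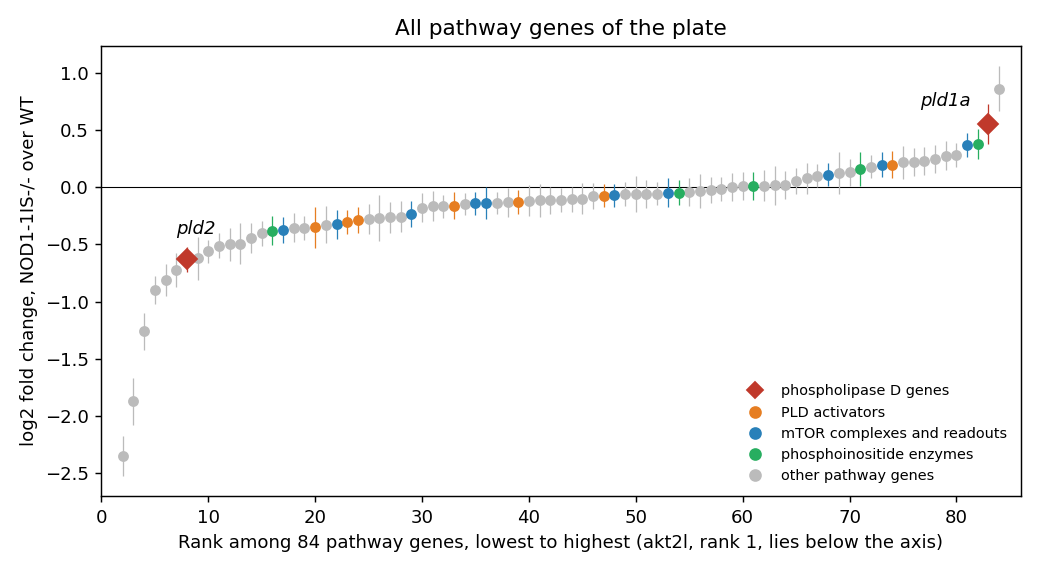
Log2 fold change of *NOD1-1IS*-/- over WT for the 84 pathway genes by rank, with standard errors from limma. Diamonds are *pld1a* (0.55) and *pld2* (−0.63), which lie near opposite ends of the order, and colours mark genes of 3 related groups. The gene *akt2l* lies below the axis.

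How far each gene was shifted depended on the reference genes, because any other reference moves both log2 fold changes, and those of all other genes, by the same amount. The median log2 fold change of the 84 genes was between −0.31 with *nono* alone and 0.89 with *acta1b* alone. Raw Ct of the references was itself not the same in the genotypes. *nono*, an RNA-binding nuclear protein gene, had a raw Ct of 21.39 ± 0.12 cycles in *NOD1-1IS*-/- and 21.90 ± 0.19 cycles in WT (SD, n = 3 each). *acta1b*, a skeletal muscle actin gene, moved the other way, with 17.05 ± 0.48 cycles in *NOD1-1IS*-/- and 16.35 ± 0.38 cycles in WT (SD, n = 3 each). *b2m*, the gene of the light chain of MHC class I, had 23.04 ± 0.25 cycles in *NOD1-1IS*-/- and 22.88 ± 0.10 cycles in WT (SD, n = 3 each). The changes of *hprt1* and *rpl13a*, a purine salvage enzyme gene and a ribosomal protein gene, were −0.19 and −0.21 cycles. Their SD in *NOD1-1IS*-/- was 0.061 and 0.053 cycles. The positive PCR control changed by −0.21 cycles on average but with an SD of 0.22 in *NOD1-1IS*-/-, where replicate 2 (19.69) was near the WT values. Whether the plates had a part in the changes of the references was not tested.

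Over the 10 ways of normalization, *pld1a* was higher in *NOD1-1IS*-/- in each, with log2 fold changes from 0.35 with *nono* alone to 1.56 with *acta1b* alone. The genotypes were separated in 9 of the 10, and with *nono* alone their replicates overlapped. *pld2* was lower in 9 of the 10, from −0.83 with *nono* alone to −0.17 with *b2m* alone. With *acta1b* alone its log2 fold change was 0.37, and with *acta1b* alone or *b2m* alone the replicates of the genotypes overlapped, so the direction of *pld2* rests on not taking *acta1b* as unchanged. Normalized to the mean of the 84 pathway genes, which uses no reference gene, *pld1a* was at 0.79 and *pld2* at −0.39, with the median of the 84 genes at 0.13. On raw Ct *pld1a* was at 0.85 and *pld2* at −0.33, without overlap of the genotypes for either gene. The gaps were only 0.19 and 0.10 cycles, and the 3 positive control wells of a replicate had an SD of up to 0.18 cycles.

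**Figure D4:**
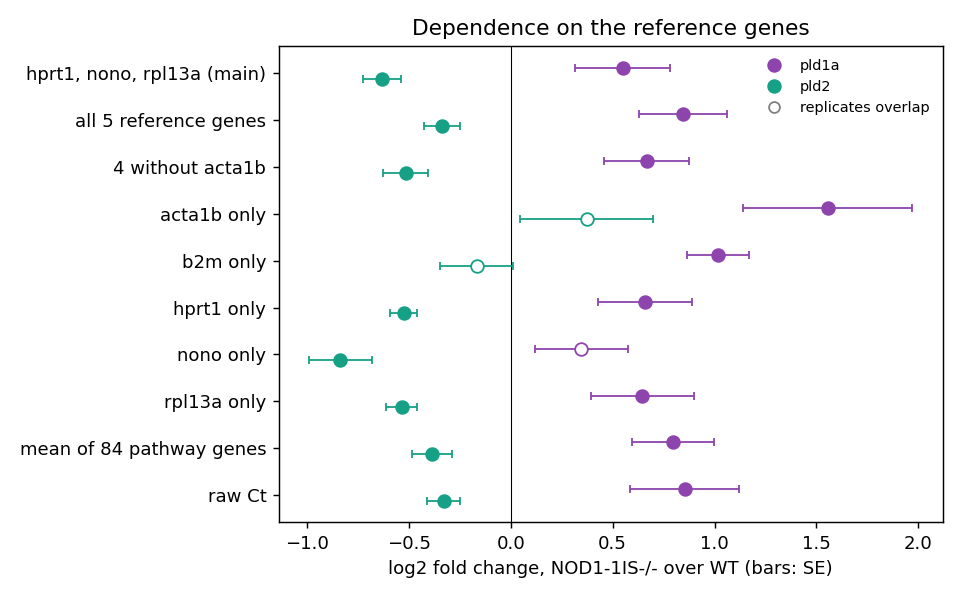
Log2 fold change of *NOD1-1IS*-/- over WT for *pld1a* and *pld2* under 10 normalizations, with the standard error from 3 replicates per genotype. Open circles mark normalizations in which replicates of the genotypes overlapped. *pld1a* ranges from 0.35 to 1.56 and *pld2* from −0.83 to 0.37, and the distance between them is the same 1.18 in every row.

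The pathway genes whose Ct ran most closely with each member were sought by the SD, over the 6 replicates, of the difference in raw Ct between the gene and the member. This measure includes the shift between the genotypes, so nearness says only that 2 wells moved alike over these pools. Among the genes near *pld1a* were *vegfaa*, a vascular growth factor gene, with an SD of 0.23 cycles and *pik3cg*, a catalytic subunit gene of class I PI3K, with 0.24. The median over the 82 other pathway genes was 0.45 cycles. The log2 fold changes of *vegfaa* and *pik3cg* were 0.23 and 0.16, less than that of *pld1a*, and neither passed the limma test, with 0.220 for *vegfaa* as the smaller adjusted p. In *vegfaa* the ΔCt was 5.43, 5.40 and 5.67 cycles in *NOD1-1IS*-/- replicates 1, 2 and 3, against 5.88, 5.73 and 5.56 cycles in the WT replicates. Replicate 3 had the lowest level of the mutant pools for *vegfaa*, as it did for *pld1a*, and for *vegfaa* it lay below WT replicate 3.

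Nearest to *pld2* was *fkbp1ab*, an FK506-binding protein gene, with an SD of 0.12 cycles, then *prkab2* with 0.12 and *prkaa2* with 0.16, which code for a β and an α subunit of the energy sensor AMPK. The median over the 82 other genes was 0.34 cycles. In *fkbp1ab* the ΔCt was 6.50, 6.48 and 6.55 cycles in the *NOD1-1IS*-/- replicates, against 5.93, 5.85 and 6.07 cycles in the WT replicates. All 3 genes fell in *NOD1-1IS*-/-, with log2 fold changes of −0.56, −0.81 and −0.51 (adjusted p of 0.00316, 0.00217 and 0.00664 from limma). They were picked for moving with *pld2*, itself chosen as lower, so a fall was largely fixed by that choice. Nothing is read from these p-values. With *acta1b* alone as the reference the log2 fold changes were 0.44, 0.19 and 0.49, since another reference moves all genes by the same amount. With *b2m* alone none of the 3 passed, with all 5 reference genes or on raw Ct *fkbp1ab* and *prkaa2* did not pass, and against the mean of the pathway genes *prkaa2* did not.

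The known mammalian activators of phospholipase D found on the plate under the symbols searched did not pass the test. Among them are the GTPase genes *rheb*, *rhoab* and *cdc42* and the protein kinase C genes *prkca*, *prkcbb* and *prkceb*, and 0 of the 7 genes of the list had an adjusted p under 0.05 in limma, with 2 at an unadjusted p under 0.05 and 1 called with a mean-variance trend and robust prior. The median of their log2 fold changes was −0.16 beside −0.11 over all 84 genes. Of all 84 genes, 19 (22.6%) had an adjusted p and 27 an unadjusted p under 0.05 in limma, and 22 were called with the trend and robust prior. Whether the 7 genes differ from this share was not tested. *rhoab* was at −0.31 with a standard error of 0.10 (adjusted p = 0.0602) and *prkcbb* at 0.20 with a standard error of 0.12 (adjusted p = 0.272). The list held 6 genes below 0 and 1 above.

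Of the mTOR complexes and their readouts, 10 genes were on the plate under the symbols searched. In limma 1 rose and 1 fell at an adjusted p under 0.05, a share close to the 19 of 84 genes (22.6%) of the whole plate. In the list 3 genes had an unadjusted p under 0.05 in limma, and 2 were called with a mean-variance trend and robust prior. Over all 84 genes these counts were 27 and 22. The log2 fold change of *mlst8*, which codes for a subunit common to both mTOR complexes, was 0.37 (standard error 0.10, adjusted p = 0.0362 from limma). *deptor*, which codes for an inhibitor of both complexes, fell by 0.37 on the log2 scale (standard error 0.11, adjusted p = 0.0383 from limma), although with *acta1b* alone it was at 0.63 and with *b2m* alone at 0.092. The kinase gene *mtor* itself was at −0.14 with a standard error of 0.10 (adjusted p = 0.349). The median of the 10 genes was −0.10. Both calls were lost without WT replicate 1, 2 or 3, and also with the replicate number as a block. The call of *mlst8* was also lost without *NOD1-1IS*-/- replicate 2, and that of *deptor* without replicate 1 or 3. Of the 9 other references, that of *mlst8* was lost with *nono* alone, whereas that of *deptor* was kept with *nono* alone and lost or reversed with the 8 others.

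Phosphoinositide enzymes make or remove phosphoinositides, lipids that mammalian phospholipase D needs for its activity. Of the 5 genes of this group, 0 had an adjusted p under 0.05 in limma, with 2 at an unadjusted p under 0.05 and 1 called with a mean-variance trend and robust prior. Over all 84 genes, these 3 counts were 19, 27 and 22. The catalytic subunit genes of class I PI3K lay on both sides, with *pik3cb* at −0.38 on the log2 scale with a standard error of 0.13 (adjusted p = 0.0552) and *pik3cd* at 0.38 with a standard error of 0.13 (adjusted p = 0.0618). *pik3c3*, which codes for the class III PI3K, was at 0.011 with a standard error of 0.12. Over all 22 genes of the 3 lists, 2 (9.09%) were called, beside 22.6% of the whole plate. The median log2 fold change of the 22 genes was −0.10, and it was −0.30 with *nono* alone and 0.90 with *acta1b* alone, so no direction is read from the lists. Whether these lists differ from the rest of the plate was not tested.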

How the data were processed

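The authors deposited raw Ct values of the mTOR array, 1 column per replicate, with genotype and number in the column name. They also deposited normalized values per gene and genotype, which are linear ratios (2 raised to −ΔCt) made with the manufacturer's software, and fold changes between the genotypes, which were not used. For both phospholipase D genes the deposited ratio equals the mean ΔCt against *hprt1*, *nono* and *rpl13a*, with a log2 difference of at most 4.95e-08. No column of per-sample values was left out. Threshold and baseline settings are not given in the sources used here. PCR arrays have no read depth, and precision is set by 3 replicates with 1 well each.

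Genotypes were compared on −ΔCt with limma 3.58.1 (lmFit and eBayes, R 4.3.3), two-sided, over the 84 pathway genes with Benjamini-Hochberg adjustment at 0.05. The fit was also run on simulated data with independent noise for each gene. That simulation held no shift of the reference genes, so it does not check the calls against such a shift. No gene was filtered. The labels hold 1 record per genotype, and the replicates are those of the Ct columns. The members and lists were chosen with earlier results of these data known. Named genes are the members, the reference genes, the 3 pathway genes nearest to each member, and in each list the genes that passed or else the one with the largest change. Single values of some genes under this rule are not reported here. *mtor*, *pik3c3*, *pik3cd*, *nod1*, *pld1b*, the other activators of phospholipase D, *akt2l*, *rragd*, *ddit4* and *rps6ka2* are named besides. The alternatives were other reference genes, raw Ct, each replicate left out, the replicate number as a block, a trend with robust prior, limits on late Ct, linear averaging and a lower efficiency. The alternatives for the lists and the single genes other than the members were added after seeing the data.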

Additional observations from a re-analysis of the deposited data

How the results depend on the processing

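With each replicate left out or with linear averaging, the *pld1a* to *pld2* ratio shift was 0.99 to 1.36 in log2. Log2 fold changes were 0.42 to 0.75 for *pld1a* and −0.71 to −0.57 for *pld2*. These moves were within the replicate spread. A replicate block cannot move these values, and 90% efficiency only rescales them. *pld1a* was at 0.84 with all 5 reference genes, 1.56 with *acta1b* alone, 1.01 with *b2m* alone and 0.85 on raw Ct. *pld2* was at −0.34 with all 5, −0.52 with the 4 without *acta1b*, −0.17 with *b2m* alone, −0.83 with *nono* alone, −0.39 against the mean of the pathway genes and −0.33 on raw Ct, and it reversed to 0.37 with *acta1b* alone. *pld1a* was not called with *nono* alone or without any single replicate other than *NOD1-1IS*-/- replicate 3. *pld2* was not called with all 5 reference genes, *acta1b* alone or *b2m* alone.

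Of the 84 pathway genes, 58 were called with *acta1b* alone (3 lower, 55 higher), 44 with *b2m* alone (5 lower, 39 higher) and 30 with *nono* alone (29 lower, 1 higher), beside 16 and 3 in the main analysis. With all 5 reference genes 7 were lower and 19 higher, with the 4 without *acta1b* or with *rpl13a* alone 10 lower and 5 higher, with *hprt1* alone 10 lower and 4 higher, against the mean of the pathway genes 9 lower and 18 higher, and on raw Ct 7 lower and 21 higher. With each replicate left out 10 to 18 genes were called, 12 without WT replicate 2 and 10 without WT replicate 3. Deviations of same-numbered pools correlated over genes with r = −0.22, 0.086 and −0.049, none of them the best match of its pool. These deviations were taken from the mean of 3 pools, which ties the correlations to each other. They therefore cannot decide whether the replicate numbers pair the samples. With the replicate block 16 genes were called, 14 lower and 2 higher, with both phospholipase D genes among them. These were picked for this contrast, so nothing is read from their calls. No gene reached a Ct of 30 cycles, so limits on Ct test nothing.

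Of the 22 genes of the 3 lists, 2 were called. This became 6 with all 5 reference genes, against the mean of the pathway genes and on raw Ct, 15 with *acta1b* alone, 11 with *b2m* alone, 1 with *hprt1* alone, 7 with *nono* alone, 4 with a trend and robust prior and 0 with the replicate block (limma, 6 at an unadjusted p under 0.05). With each replicate left out it was 0 to 3, with 0 without any WT replicate (3, 6 and 5 at an unadjusted p under 0.05) and 1 without *NOD1-1IS*-/- replicate 3. The log2 fold change of *deptor* reversed to 0.63 with *acta1b* alone and 0.092 with *b2m* alone. Those of *fkbp1ab*, *prkab2* and *prkaa2* reversed to 0.44, 0.19 and 0.49 with *acta1b* alone. The cause of these moves was not tested.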
